A study of Danio rerio with 4 samples.

Results

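Messages of 64 genes named as cytosolic ribosomal proteins were followed in zebrafish eyes. They are all genes with 1 annotated symbol made of rpl or rps, a number and at most further letters or digits, without the rps6k kinases and without symbols that hold a point, out of 19260 genes with 1 symbol on the array. Of the 64, 37 carry rpl symbols for the large subunit and 27 carry rps symbols for the small subunit. Where a gene has several probe sets the brightest stands for it, so 64 of 78 probe sets were used first, and the other 14 are described separately as a second reading. The symbol rule also takes rpl7l1, whose relative in yeast is an assembly factor of the large subunit and not a part of the finished ribosome.

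The eyes came from adult zebrafish aged 3.5 months after fertilisation, of mixed sex, kept at 28.5 °C with 14 h of light and 10 h of dark. The gene eys encodes a matrix protein around photoreceptors, and lrp5 encodes a co-receptor of Wnt signalling. The 4 genotypes were wildtype, eys-/- homozygotes, lrp5-/- homozygotes and double heterozygotes (eys+/- and lrp5+/-). Each genotype was measured on 1 array, so there is no replicate, no error bar and no test, and every difference is between 2 single arrays. The sources used here give neither the alleles nor the number of fish behind an array. Values are log2 signals, on which a difference of 1 is 2-fold. Where 4 readings are listed together, they are those of wildtype, eys-/-, lrp5-/- and double heterozygote, in this order.

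A ribosome has a small subunit, which holds the messenger RNA and reads its codons, and a large subunit, which joins amino acids and passes the growing chain through an exit tunnel. Ribosomal proteins are needed in near equal numbers, one copy of nearly each per ribosome, and their messages are abundant in every growing or secreting cell. In vertebrates most of these messages start with a run of pyrimidines, the TOP motif, through which mTOR signalling controls how much of them is translated. Loss of 1 copy of a ribosomal protein gene causes Diamond-Blackfan anaemia in humans, and in zebrafish heterozygous loss of many of them leads to tumours of the nerve sheath. Photoreceptors renew their outer segments daily and so depend on steady protein synthesis.

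The mutated gene lrp5 had its lowest reading, 6.92, in the double heterozygote, against 7.17 in lrp5-/-, 7.27 in eys-/- and 7.39 in wildtype. How its probe set lies to the mutation is not given, so this does not check the labels, and eys is not analysed here. The 4 arrays had median signals between 5.03 and 5.06 and correlated with each other at 0.978 to 0.983. Eye markers were present: rod transducin gnat1 read from 12.43 to 12.56, cone transducin gnat2 from 12.44 to 12.56 and the lens crystallin cryaa from 11.27 to 11.59. Of 40 markers fixed for 12 cell types, 34 were named on the array and 29 were measured. A gene counted as measured when its mean over the 4 arrays reached 6.57, the median of all values of probe sets with 1 symbol. This left 10006 genes and 58 of the 64 ribosomal protein genes, 33 of the large and 25 of the small subunit. The 6 below that level were rpl10, rpl13a, rpl22l1, rpl7l1, rps19 and rps27l. Nearest to it lay rpl10 with a mean of 6.53, just outside, and rps9 with 6.74, just inside. Single readings of the 64 ran from 5.74 to 11.74, but probe sets differ in brightness, so the level of one gene is not set against that of another.

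The wildtype eye gave the highest of the 4 readings for most ribosomal protein genes. The 3 mutant readings of a measured gene spanned a median of 0.14, beside a median wildtype excess of 0.16 over their mean. Wildtype was highest for 43 of the 58 measured genes (74.1%), against 25.9% of all measured genes. It was highest for 25 of 33 genes of the large subunit and for 18 of 25 of the small subunit. The eys-/- array was highest for 4 of the 58 (background 25.4%), the lrp5-/- array for 6 (20.2%) and the double heterozygote for 5 (28.5%). Over all 64 genes wildtype was highest for 46. In whole eyes, fewer cells of a type and less RNA per cell cannot be told apart. Wildtype was lowest for 1 of the 58, rps9, against 23.7% of all measured genes. The eys-/- eye read lowest for 27 of the 58, the lrp5-/- eye for 20 and the double heterozygote for 10, where 30.2%, 21.0% and 25.1% of all measured genes had these arrays lowest.

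**Figure D1:**
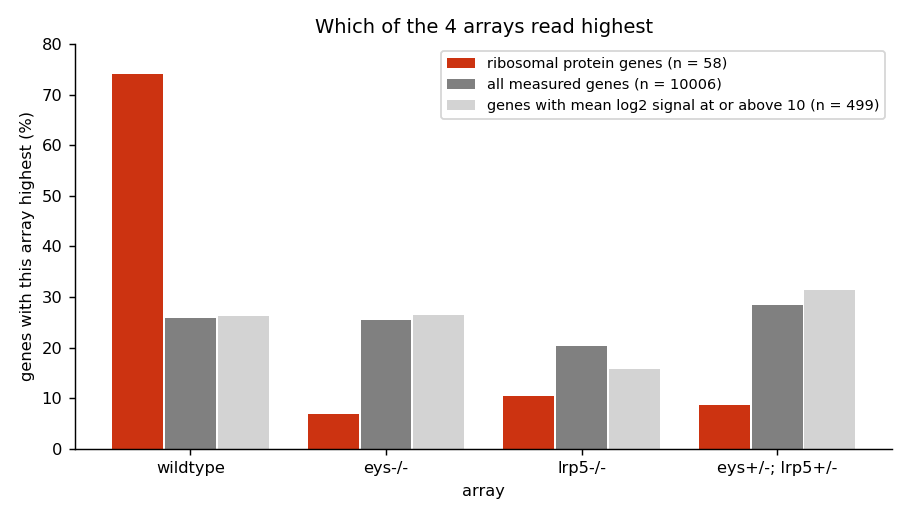
Bars give the share of genes, in percent, for which each array (x axis) read highest, for the 58 measured ribosomal protein genes, all 10006 measured genes and the 499 genes with a mean log2 signal at or above 10. Wildtype was highest for 74.1% of the ribosomal protein genes and for 25.9% and 26.3% of the other sets.

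These differences were small. The wildtype reading exceeded the mean of the other 3 arrays by a median of 0.16, or 11.6%, and lay above it for 55 of 58 genes, where 50.9% of all measured genes did so and had a median of 0.00. A total of 17.3% of all measured genes had a difference as large as that median or larger. The same quantity for eys-/- had a median of -0.08 with 12 of 58 above (47.8% of all genes), that for lrp5-/- -0.06 with 18 above (49.9%) and that for the double heterozygote -0.04 with 20 above (52.4%). For 24 of the 58 genes the wildtype reading lay above the other 3 by more than those 3 differed among themselves, which 6.72% of all measured genes did. The opposite, wildtype below by more than that range, held for 1 of the 58 and for 6.43% of all genes. Over the 3 mutant arrays the median range of a ribosomal protein gene was 0.14, against 0.22 over all measured genes.

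**Figure D2:**
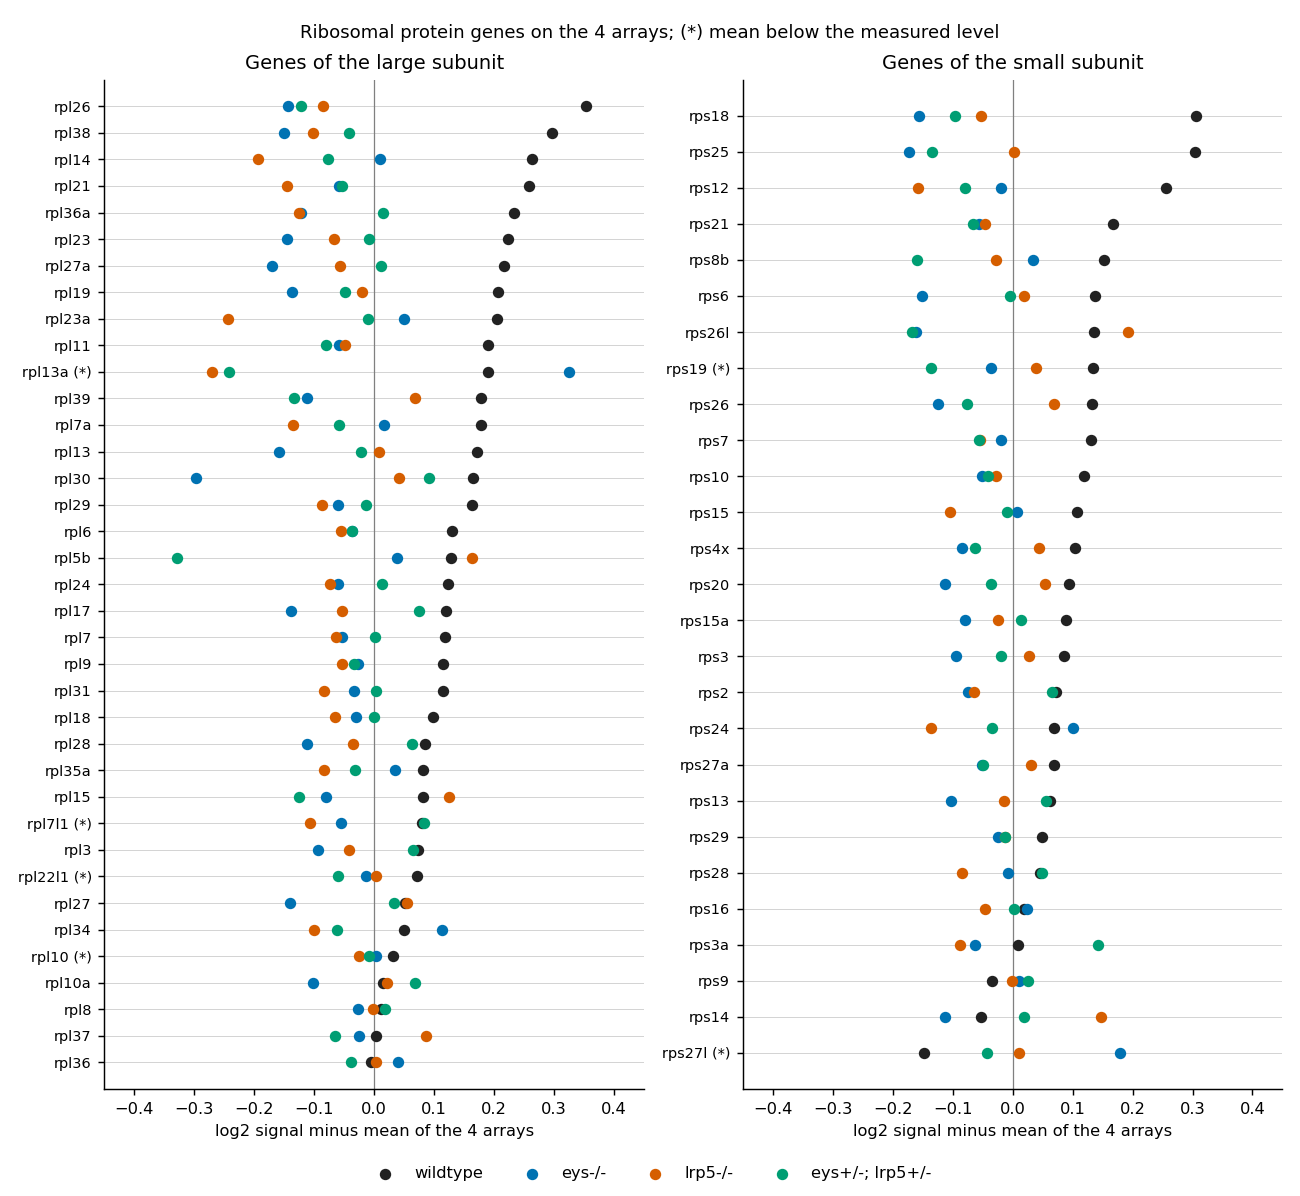
Each row is 1 of the 64 genes, with the log2 signal of each array minus the mean of its 4 arrays on the x axis, sorted by the wildtype reading against the other 3. Black wildtype points stand to the right of the coloured mutant points for 46 of 64 genes, furthest for rpl26, rpl38, rps18 and rps25.

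Around the exit tunnel of the large subunit, all 6 measured genes (rpl17, rpl19, rpl23a, rpl26, rpl31 and rpl39) had wildtype as their highest array. Among all 33 measured large subunit genes 25 did so, so this count does not set the tunnel genes apart. The product of rpl26 sits at the tunnel mouth, and in mammals it also binds the p53 message. It read 7.34, 6.84, 6.90 and 6.87. The wildtype reading stands alone here, since the 3 mutant readings span 0.06 and lie 0.44 to 0.50 below it. The mutant signals were 0.708, 0.738 and 0.720 of the wildtype signal in that order, and rpl26 had the most negative difference of all 64 in eys-/- and in the double heterozygote. The product of rpl23a is where the signal recognition particle docks, and its gene read 8.93, 8.77, 8.48 and 8.71, lowest in lrp5-/-. For rpl19, which also forms a bridge between the subunits, the readings were 8.80, 8.46, 8.57 and 8.55. For rpl39, a small protein inside the tunnel wall, they were 7.17, 6.88, 7.06 and 6.86. Here the lrp5-/- reading lay nearer to wildtype than the other 2 mutant readings did. The remaining 2, rpl17 and rpl31, had differences from wildtype between -0.26 and -0.05.

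The proteins of rpl5 and rpl11 form a particle with 5S ribosomal RNA, and in mammals the free particle inhibits Mdm2 and so stabilises p53. The gene rpl11 read 10.51, 10.26, 10.27 and 10.24. All 3 mutant readings lay within 0.03 of each other and below wildtype. The copy rpl5b read 9.71, 9.62, 9.74 and 9.25. Only its double heterozygote reading stood apart, at -0.46 from wildtype and at -0.49 from lrp5-/-, and its range of 0.49 over the 3 mutant arrays was the widest among the 58 measured genes. Its sister rpl5a is not analysed here, and near-identical copies can share probes, so the value of rpl5b is uncertain.

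Among the other genes of the large subunit, rpl38 read 8.20, 7.75, 7.80 and 7.86. In mice rpl38 is known for a skeletal patterning defect when mutated. Its mutant readings lay 0.34 to 0.45 below wildtype. The gene rpl14 read 10.43, 10.17, 9.97 and 10.09, and rpl21 read 10.35, 10.04, 9.95 and 10.04. Both were lowest in lrp5-/-, with wildtype above all mutant readings. For rpl30, whose protein lies at the contact with the small subunit and in mammals binds selenocysteine elements, the readings were 10.29, 9.83, 10.17 and 10.22. Only eys-/- stood low for rpl30, and the other 3 arrays lay within 0.12 of each other. The genes rpl23, rpl27a, rpl36a and rpl13 differed from wildtype by -0.37, -0.39, -0.36 and -0.33 in eys-/-, by -0.29, -0.27, -0.36 and -0.16 in lrp5-/- and by -0.23, -0.21, -0.22 and -0.19 in the double heterozygote. Wildtype was highest for all 4.

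The 8 measured large subunit genes whose highest array was not wildtype were rpl8, rpl10a, rpl15, rpl27, rpl34, rpl36, rpl37 and rpl5b. The product of rpl8 lies beside the site where peptide bonds form, and its readings of 7.75, 7.71, 7.74 and 7.76 were nearly equal. Those of rpl36 were 10.51, 10.56, 10.52 and 10.48. Wildtype lay inside the range of the mutants for both. For rpl3, also near the catalytic centre, wildtype at 10.61 was above the double heterozygote at 10.60 by 0.01 only, with eys-/- at 10.44 and lrp5-/- at 10.49.

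In the small subunit, 11 measured genes encode proteins of the head, where the mRNA channel closes around the decoded message. Wildtype was highest for 9 of them, and for 18 of all 25 measured small subunit genes. The product of rps18 touches the large subunit from the head, and its gene read 8.80, 8.34, 8.44 and 8.40. The product of rps25, needed in yeast and human cells for initiation at certain internal entry sites, gave 8.90, 8.42, 8.60 and 8.46. For both genes wildtype was the highest by 0.30 or more. For rps12 the readings were 9.17, 8.90, 8.76 and 8.84, again with wildtype above a close group of mutants. The other 8 head genes (rps3, rps10, rps15, rps16, rps20, rps27a, rps28 and rps29) differed from wildtype by -0.21 to 0.01 over all 3 comparisons. Of these, rps3, which lines the mRNA entry, read 11.12, 10.94, 11.06 and 11.02, and rps27a, made as a fusion with ubiquitin, read 8.74, 8.63, 8.71 and 8.63.

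The body and platform were represented by 14 measured genes. Wildtype was highest for 9, beside 18 of all 25 measured small subunit genes and 25.9% of all measured genes. The kinase target rps6 read 10.34, 10.05, 10.22 and 10.20. The readings of rps8b, 1 of a pair of copies, were 8.53, 8.41, 8.35 and 8.21. Both were highest in wildtype, and the lowest array differed between them. The gene rps14, whose human orthologue is lost in the 5q- syndrome, read 9.90, 9.84, 10.10 and 9.97. It was the measured gene with the most positive lrp5-/- difference, 0.20. The gene rps3a, whose protein lies at the platform, read 9.97, 9.89, 9.87 and 10.10, and only the double heterozygote was above wildtype, by 0.13. For rps9, whose yeast relative acts in decoding accuracy, wildtype at 6.70 was below eys-/- at 6.75, lrp5-/- at 6.74 and the double heterozygote at 6.77. The paralogs rps26 and rps26l, parts of the mRNA exit channel, read 9.22, 8.96, 9.15 and 9.01, and 9.39, 9.09, 9.45 and 9.09. In both, eys-/- and the double heterozygote lay below wildtype, and lrp5-/- differed from it by -0.06 and 0.06. Shared probes between such copies are possible, so their 2 readings may not be independent. Their second probe sets, below the measured level, did not repeat this. There lrp5-/- differed from wildtype by -0.30 for rps26 and -0.14 for rps26l, and the double heterozygote by -0.24 and 0.05.

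The 6 genes below the measured level varied more in direction. For rps27l, induced by p53 in human cells, wildtype was the lowest array, with readings of 5.74, 6.07, 5.90 and 5.84. For rpl13a, which in human cells leaves the ribosome to silence inflammatory messages after interferon-gamma, they were 6.34, 6.47, 5.88 and 5.91. The differences of rpl13a from wildtype were thus 0.14 in eys-/- and -0.46 and -0.43 in the others. The genes rps19, rpl22l1, rpl10 and rpl7l1 differed from wildtype by -0.27 to 0.00, and at these levels a difference is uncertain in size.

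The first comparison asked how eyes with 1 mutant copy of both genes differ from wildtype eyes. In the double heterozygote 52 of 58 measured ribosomal protein genes lay below wildtype, against 49.5% of all 10006 measured genes. The median difference was -0.14, a change of -9.02%, against 0.00 for all measured genes, of which 25.7% lay at or below -0.14. Of the 58, 0 passed 2-fold, as 1.46% of all genes did. By a smaller step, a log2 difference of 0.32 or more, 7 were lower (12.1%, background 8.81%) and 0 higher (background 10.3%). The 7 were rpl26 at -0.47, rpl5b at -0.46, rps25 at -0.44, rps18 at -0.40, rpl14 and rpl38 at -0.34 each and rps12 at -0.33. The share lower was near its background, while on the higher side there was none. Large and small subunit genes had medians of -0.17 and -0.12. Most positive of the 6 measured genes above wildtype were rps3a at 0.13, rps14 at 0.07, rps9 at 0.06 and rpl10a at 0.05. Beside them lay rps27l at 0.10, which was not measured.

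The second comparison set eys-/- homozygotes against wildtype. Here 53 of 58 genes lay below wildtype (background 53.1%), with a median of -0.17 (-11.1%) against -0.01 over all measured genes, of which 20.6% lay at or below that median. None of the 58 was past 2-fold (background 0.5%), 10 were lower by 0.32 or more (17.2%, background 7.29%) and 0 higher (background 6.55%). In rpl26 the difference was -0.50 and in rps25 -0.48. It was -0.46 in both rps18 and rpl30 and -0.45 in rpl38. In rpl27a, rpl23, rpl36a, rpl19 and rpl13 it lay between -0.39 and -0.33. Of these 10, 8 encode large subunit proteins, as do 33 of all 58. Subunit medians were -0.18 for the large and -0.17 for the small subunit. The most positive values were 0.06 for rpl34, 0.05 for rps9 and rpl36, 0.14 for rpl13a and 0.33 for rps27l, the last 2 not measured.

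The third comparison set lrp5-/- homozygotes against wildtype. Below wildtype were 49 of 58 genes (background 49.9%), with a median of -0.16 (-10.3%) against 0.00 over all measured genes, of which 20.4% lay at or below it. Again 0 of 58 passed 2-fold (background 0.57%), 8 were lower by 0.32 or more (13.8%, background 6.09%) and 0 higher (background 7.53%). The 8 were rpl14 at -0.46, rpl23a at -0.45, rpl26 at -0.44, rps12 at -0.41, rpl21 and rpl38 at -0.40 each and rpl36a and rps18 at -0.36 each. Next was rpl7a at -0.31. Most positive of the 9 measured genes above wildtype were rps14 at 0.20, rpl37 at 0.08, rps26l at 0.06 and rpl15 at 0.04. Beside them lay rps27l at 0.16, which was not measured. The medians were -0.17 for the large and -0.11 for the small subunit. Since these 3 comparisons share the wildtype array, a high reading there enters each of them, and their likeness is no independent repeat.

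Brightness did not order the genes. Across the 58 genes the correlation of the mean level with the difference from wildtype was 0.11 in the double heterozygote, 0.06 in eys-/- and 0.04 in lrp5-/-, and these genes share their arrays. The 14 ribosomal protein genes with a mean at or above 10 had medians of -0.12, -0.18 and -0.17 in the same order. The 485 other genes that bright had medians of 0.03, 0.00 and 0.01.

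**Figure D3:**
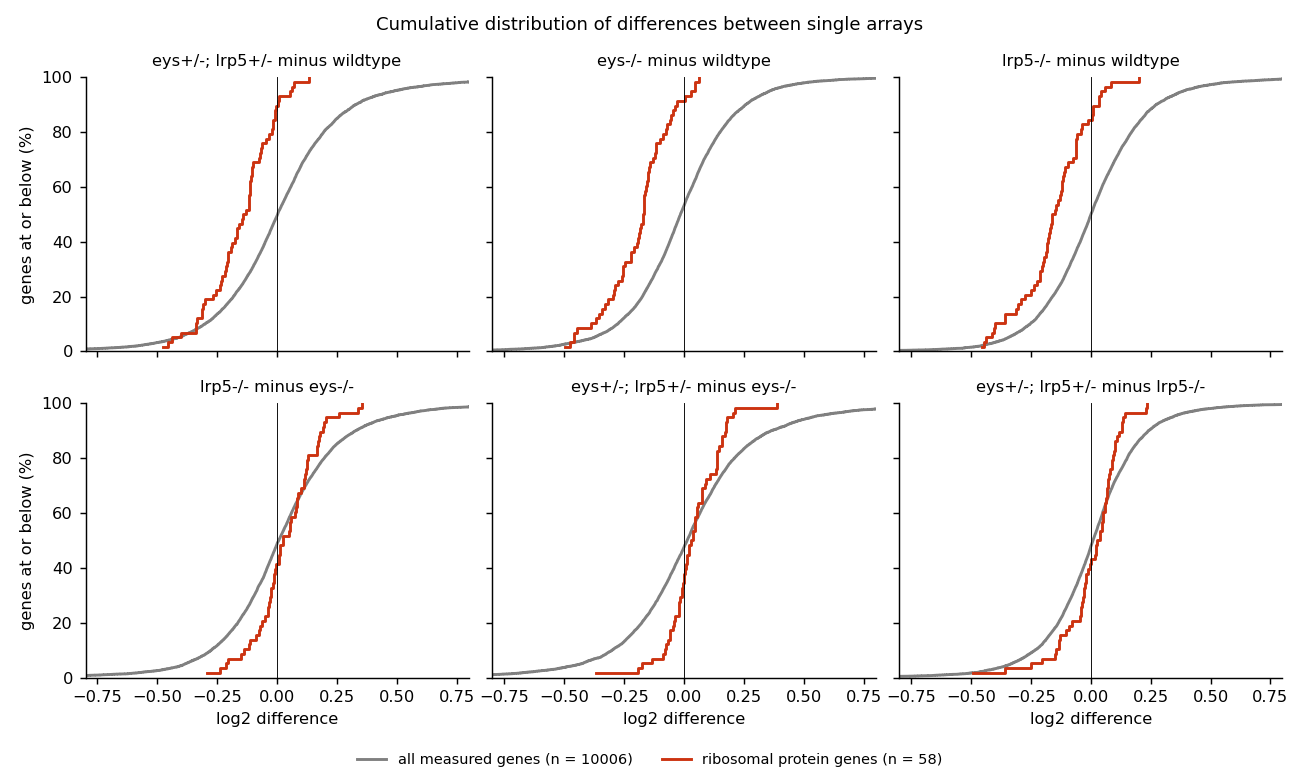
Each curve gives the percentage of genes (y axis) at or below a log2 difference (x axis), for 58 ribosomal protein genes in red and 10006 measured genes in grey. Against wildtype (top row) the red curves lie left of the grey ones, with medians of -0.14, -0.17 and -0.16, while between mutant arrays (bottom row) all medians lie from 0.01 to 0.03.

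Without the wildtype array the shift was small. In lrp5-/- against eys-/- eyes the median was 0.02 over 58 genes, 24 of them lower (background 48.7%), with 0 lower by 0.32 or more (background 7.43%) and 2 higher (background 10.3%). The 2 were rps26l at 0.35 and rpl30 at 0.34. In double heterozygote against eys-/- eyes the median was 0.03, with 20 lower (background 47.5%), 1 lower by 0.32 or more (background 8.82%), rpl5b at -0.37, and 1 higher (background 12.0%), rpl30 at 0.39. In double heterozygote against lrp5-/- eyes it was 0.03, with 25 lower (background 47.9%), 2 lower by 0.32 or more (background 5.48%), rpl5b at -0.49 and rps26l at -0.36, and 0 higher (background 5.64%). None of the 58 passed 2-fold in any of these (backgrounds 1.12%, 1.8% and 0.39%). The medians of all measured genes were 0.01 in each. The genes past that step between mutant arrays were rpl5b, rpl30 and rps26l. The second probe set of rps26l, below the measured level, did not pass it. It gave 0.08 in lrp5-/- against eys-/- eyes and 0.19 in double heterozygote against lrp5-/- eyes.

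The second probe sets gave another reading of 14 genes, and they came second by their mean over the same arrays. Since both readings share the wildtype array, they are no independent repeat. Only 3 of them had a mean at or above the measured level. Wildtype was highest on 9 of the 14, against 25.8% of the 1532 lower probe sets of other genes. Below wildtype lay 10 of 14 in the double heterozygote, 11 in eys-/- and 10 in lrp5-/-, where 53.5%, 49.2% and 50.3% of the other genes' lower probe sets did. Their medians were -0.21, -0.22 and -0.27, against -0.02, 0.00 and 0.00.

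Among the 3 measured ones, that of rps7, mutated in some Diamond-Blackfan families in humans, read 7.10, 6.56, 6.59 and 6.41. Its first probe set read 8.92, 8.77, 8.73 and 8.73, so both put wildtype highest, by different amounts. For rps4x the second probe set gave 6.93, 6.70, 6.60 and 6.57, and the first 8.64, 8.46, 8.58 and 8.48. For rpl28 they gave 6.76, 6.59, 6.55 and 6.67, and 9.04, 8.85, 8.92 and 9.02. Wildtype was highest on both probe sets of these 3 genes. The probe sets of rpl11 disagreed: the second, well below the measured level, read 5.69, 6.11, 5.78 and 5.96, with wildtype lowest. Those of rps26l disagreed too: the second, also below that level, read 5.76, 5.55, 5.63 and 5.81, with the double heterozygote highest. For rps19 wildtype was highest on the first and lowest on the second, both below that level. Both probe sets of rps27l had wildtype lowest. The second set named rpl37 carries no gene identifier, and may stand for another gene.

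**Figure D4:**
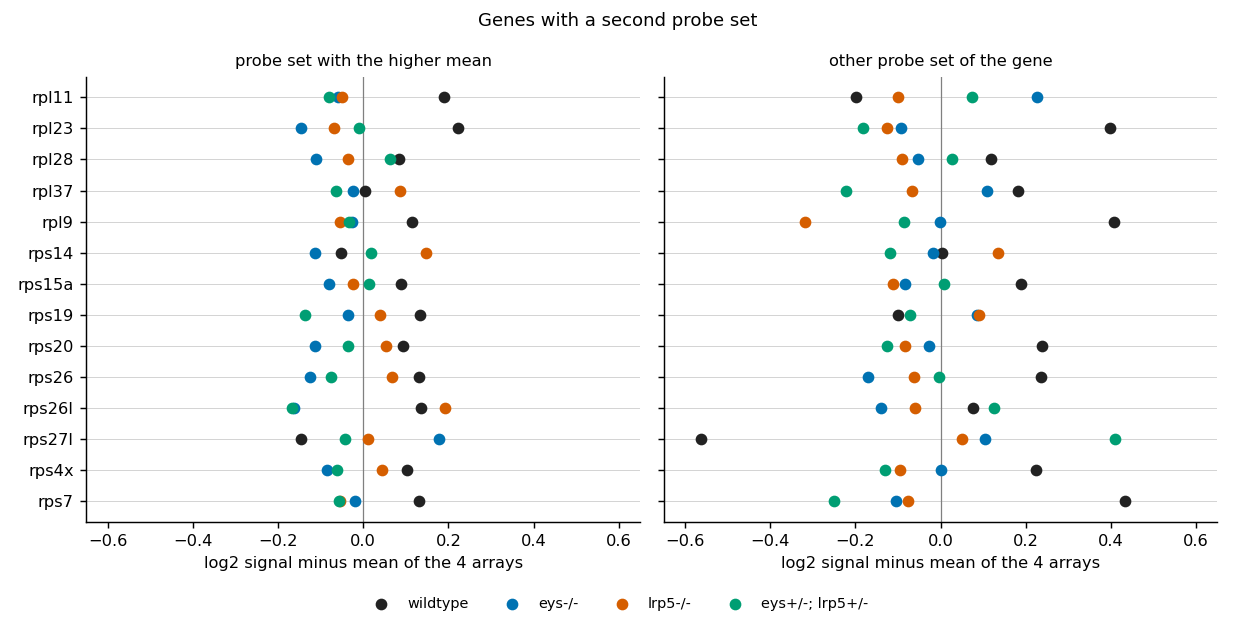
For the 14 genes with a second probe set, points give each array's log2 signal minus the mean of the 4 arrays, for the brighter probe set (left) and the other (right). Wildtype is the highest point on 9 of the 14 second probe sets, and the lowest for rpl11, rps19 and rps27l.

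A further 8 genes encode cytosolic ribosomal proteins or partners under symbols that the rule does not take. Their medians against wildtype were -0.13 in the double heterozygote, -0.15 in eys-/- and -0.16 in lrp5-/-. Below wildtype lay 6, 8 and 7 of 8 (backgrounds 49.5%, 53.1% and 49.9%), and wildtype was highest for 5 (background 25.9%). The stalk genes, whose proteins recruit translation factors, were unequal: rplp2 read 8.56, 8.21, 7.99 and 8.22, and rplp1 read 10.86, 10.79, 10.71 and 10.91. For rplp2b the readings were 8.96, 8.76, 8.99 and 8.85. Of these 3, rplp2 had wildtype above all mutants. The scaffold rack1 on the head of the small subunit read 11.13, 10.96, 10.96 and 11.06, and rpsa 8.64, 8.59, 8.55 and 8.75. For faua, fused to a ubiquitin-like protein, the readings were 8.38, 8.26, 8.28 and 8.17. The copies rps27.1 and rps27.2 differed from wildtype by -0.32 and -0.03 in eys-/-, by -0.20 and -0.23 in lrp5-/- and by -0.14 and -0.41 in the double heterozygote. Genes of human Diamond-Blackfan anaemia, 13 measured and among them only rps27.1 outside the symbol rule, had medians of -0.19, -0.16 and -0.15 in double heterozygote, eys-/- and lrp5-/- eyes.

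Other parts of the translation apparatus differed in direction. A list for ribosome assembly held 49 measured genes, with abce1 and polr1a, described below, among them. Of the 49, 39 lay below wildtype in the double heterozygote (background 49.5%), 42 in eys-/- (53.1%) and 38 in lrp5-/- (49.9%). The medians were -0.18, -0.12 and -0.12. Lower by 0.32 or more were 14, 11 and 14 of the 49, against 8.81%, 7.29% and 6.09% of all measured genes. Of the 58 ribosomal protein genes 7, 10 and 8 passed that step, so smaller shares than in the assembly list. Wildtype was highest for 31 of the 49 (background 25.9%). The gene rsl24d1, an assembly factor that holds the place of rpl24 in the maturing large subunit, read 9.07, 8.34, 8.50 and 8.47. The gene pno1, which acts in maturation of the small subunit, read 9.16, 8.79, 8.74 and 8.45. Both were lower than wildtype on every mutant array. On the other side abce1, which recycles ribosomes, differed by 0.17, 0.05 and 0.25 in the double heterozygote, eys-/- and lrp5-/-. The large subunit of RNA polymerase I, polr1a, was the only measured gene of 8 for that enzyme, at 0.53, -0.18 and 0.19.

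Cytosolic tRNA synthetases, which load tRNAs with amino acids, had wildtype highest for 0 of 18 (background 25.9%). In the double heterozygote, eys-/- and lrp5-/-, their medians against wildtype were 0.05, 0.14 and 0.12. Below wildtype lay 9, 3 and 4 of 18 (backgrounds 49.5%, 53.1% and 49.9%), and aars1, for alanine, differed by 0.39, 0.52 and 0.36. In eys-/-, farsa differed by 0.77, from 9.40 to 10.17. Genes with eif symbols, initiation factors together with regulators such as the kinases eif2ak1 to eif2ak3 and the inhibitors eif4ebp2 and eif4ebp3l (51 genes), had medians of -0.02, -0.02 and -0.08. Genes with eef symbols, elongation factors together with the kinase eef2k and with eef1e1 (10 genes), had medians of -0.05, -0.02 and -0.01. In eys-/- the initiation factor eif3k read 9.48 against 9.98 in wildtype, while eif4g2a and eif4e1c differed by 0.41 and 0.40. Messages with a TOP motif other than those of ribosomal proteins, 21 measured with rack1 and several of those factors among them, had medians of -0.05, -0.04 and -0.09. Below wildtype lay 15, 15 and 14 of these 21 (backgrounds 49.5%, 53.1% and 49.9%). For 10 of the 21 wildtype was highest (47.6%, background 25.9%), as for 20 of the 51 eif genes and 4 of the 10 eef genes. Among the TOP messages naca, a partner of nascent chains at the tunnel mouth, differed by -0.26, -0.29 and -0.32. Mitochondrial ribosomal proteins (37 genes) had medians of -0.06 in the double heterozygote, 0.06 in eys-/- and -0.10 in lrp5-/-. Wildtype was highest for 9 of 37 (24.3%), near the background of 25.9%.

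**Figure D5:**
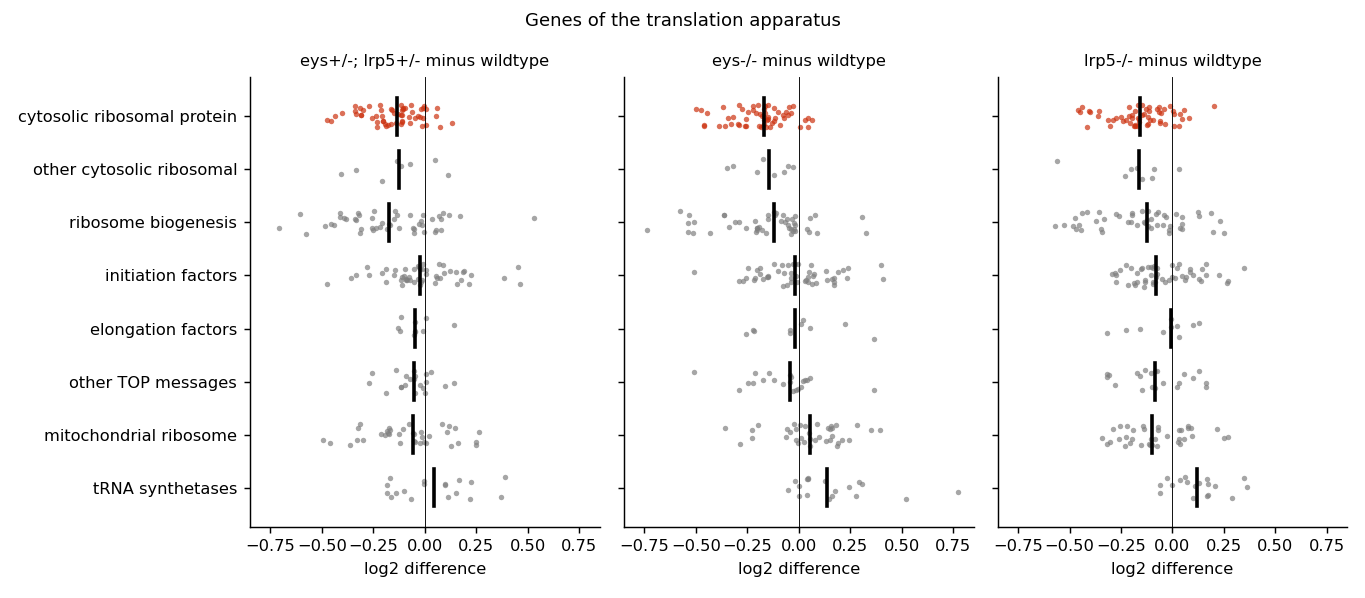
Points are measured genes, with the log2 difference from wildtype on the x axis and black bars at the median of each list. Initiation and elongation factors are taken by symbol and include their regulators. Cytosolic ribosomal protein and ribosome biogenesis genes have medians from -0.18 to -0.12 in all 3 panels, and tRNA synthetases from 0.05 to 0.14.

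Markers of other cell types were set beside these values, with differences given for double heterozygote, eys-/- and lrp5-/- in turn. Counts of markers highest in wildtype rest on few genes per list, and 25.9% of all measured genes had that array highest. Ganglion cell markers were highest in wildtype for 3 of 3. Of these, isl2b read 7.24, 6.79, 7.16 and 7.01, rbpms2b read 9.42, 9.15, 9.38 and 9.32 and pou4f1 read 7.28, 7.07, 7.18 and 6.98. Their median differences were -0.23, -0.27 and -0.08. The wildtype array was highest for 1 of 2 rod, 1 of 3 cone, 1 of 3 skeletal muscle and 1 of 2 endothelial markers. It was highest for 0 of 4 lens, 0 of 3 pigment epithelium, 0 of 2 bipolar cell, 0 of 3 Muller glia, 0 of 3 cornea and skin and 0 of 1 red blood cell markers, and no immune marker was measured. Pigment epithelium markers had medians of 0.22, 0.44 and 0.34, lens markers 0.21, 0.01 and 0.10, rod markers -0.02, 0.04 and -0.07 and cone markers 0.12, -0.02 and 0.04. The pigment epithelium list held rlbp1b and the Muller glia list its copy rlbp1a. Which cell type holds which copy was not checked, so the counts and medians of these lists are uncertain. Skeletal muscle markers had medians of -0.15, 0.10 and -0.67, and endothelial markers -0.10, -0.22 and -0.07. The part of these tissues in the ribosomal protein readings was not tested. Genotype, array and the eyes sampled for it cannot be told apart.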

How the data were processed

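The authors deposited log2 signals of 75212 probe sets for 4 arrays. Per the submitters' processing notes, the tools included RMA and version 4.0 of Transcriptome Analysis Console. By definition RMA equalises the arrays' distributions, so a shift common to most genes would not be visible. Per the labels' protocols, biotin-labelled single-stranded cDNA from total RNA was hybridised. Array annotation dated before the current genome named 21661 probe sets, 20806 with 1 symbol. A further 14 probe sets that name a ribosomal protein together with another gene were not used. Of the 78 probe sets used here, 77 have a gene in the RefSeq table of GRCz12tu, which gave names only. No coordinates or sequences are printed.

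Differences of log2 signals were computed in Python 3.11.15 with pandas 2.3.3 for the 6 pairs of arrays, over all measured genes. With 1 array per genotype no test is possible, and the number of arrays limits the precision. Counts used 2-fold and a log2 difference of 0.32. A median and a count past 2-fold were also computed on simulated data with known shifts. This used separate code for them, so the code behind the medians and counts reported here was not itself tested. It is no test of the genotypes either.

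Genes named were drawn from the 10 most negative and 5 most positive ribosomal protein genes per comparison with wildtype, copies and genes with a second probe set. Others came from fixed structural groups and from the largest in either direction in related lists. Not every gene of these groups is named, for example not rpl9 and rps15a, which have a second probe set. Where the text explains a pattern, other genes are named by their place in it, and these were chosen after their values were seen. The members and lists were chosen with earlier results of these data known. The symbols faua and rplp2b were added to a list after the annotation was read. Alternatives were the filter on level, the probe set rule, the reference, scaling, level trend, member choice and fold.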

Additional observations from a re-analysis of the deposited data

How the results depend on the processing

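With 1 array per genotype, signal over background and fish-to-fish spread are unknown. No paired analysis was possible because no genotype has a second array. All 30 medians under the alternatives to the comparisons with wildtype were negative, from -0.18 to -0.035, and the count past 2-fold was 0 throughout. Choosing members by role and filtering on the higher array at the measured level kept the same 58 genes. Their medians therefore only repeat the main ones and add no support. Filtering at 8 on the higher array of a pair took in rpl38, at 8.20 in wildtype and 7.75, 7.80 and 7.86 in the mutants. Such a gene enters through wildtype alone, so the negative medians under this filter add no support either. With the other 3 arrays averaged as the reference, the medians were -0.035 for the double heterozygote, -0.081 for eys-/- and -0.061 for lrp5-/-. Here wildtype is only a part of the reference, and a mutant array has the same value whichever array it was paired with. The values counted between mutant arrays thus repeat these medians, and their turned sign says nothing on those pairs. In each of these 3 comparisons 1 gene was lower by 0.32 or more. Centring the arrays gave a median of -0.15 in eys-/- against wildtype, and, in lrp5-/- against eys-/-, 1 lower gene and a median of -0.00904 in place of 0.024. With the genes at or above 10 that median was -0.00025. So 5 of 30 medians between mutant arrays were negative, the repeated values among them. Among the 14 genes at or above 10, wildtype was highest for 13, against 26.3% of all 499 genes that bright. The lower genes there were 1 in the double heterozygote and 2 in each homozygote against wildtype, and 0 in the double heterozygote against either homozygote, with a median of 0.064 against eys-/-. At 1.5-fold the counts were 0. Without a filter on level, 1 gene was lower in lrp5-/- and 2 in the double heterozygote against eys-/-. Without genes that have a copy, 0 were lower in the double heterozygote against either homozygote. Averaging probe sets left 1 lower gene in the double heterozygote against lrp5-/-. Some of these settings had fewer genes, a higher step or wildtype in the reference, and the cause of the changes was not tested. The filter on the higher array at the measured level was chosen after seeing the data. It kept the same 58 genes, so its count of 43 with wildtype highest only repeats the main one. Removing the trend with level gave 44.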
